A study of Mus musculus with 18 samples.

Results

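The 3 arrays of cultured cells that the labels call pulmonary microvascular endothelial cells (PMVEC), treated with vehicle, were compared with the 3 arrays of whole lung from wild-type mice that breathed room air. These 6 arrays were chosen by their labels from 18 arrays in the series. The cultures came from wild-type female C57BL/6 mice aged 4 to 6 weeks, were used at passages 3 to 5 and were exposed to vehicle for 24 h. The sources used here do not say how the cells were purified or whether the cultures came from separate mice. The lungs came from wild-type male C57BL/6 mice aged 8 to 12 weeks that were kept in room air for 4 days. The other arrays held cultures given recombinant IL-4 (rIL-4) at 50 ng/mL for 24 h, wild-type lung after 4 days at 10% oxygen, and lung of IL-4 knockout mice in room air or at 10% oxygen, with 3 arrays each. In the comparison of cultures with lung, growth in culture, sex, age and experiment all go with the source of the RNA, and their effects cannot be told apart. The data went against the endothelial label in that 7 of the 9 measured defining endothelial genes were not detected, so the cells are called the cultures below.

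Endothelial cells line blood and lymph vessels and hold together through junction proteins such as PECAM1 and VE-cadherin (Cdh5). They respond to VEGF and angiopoietin through the receptors Kdr, Flt1 and Tek, and transcription factors of the ETS and SOXF families keep up their identity. Whole lung holds these cells beside fibroblasts, smooth muscle, alveolar and airway epithelium, mesothelium and blood cells. Fibroblasts and other mesenchymal cells are known by fibrillar collagens, by PDGF receptors and by transcription factors such as Twist1 and Prrx1, and they grow readily on plastic.

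Each value below is the percentile of a probe's signal within its array, from 0 for the dimmest to 100 for the brightest of 25697 probes. A difference is the mean of the cultures less the mean of lung, in percentile points, and a transcript was called detected at a detection p-value under 0.05. Percentiles compress differences between very bright transcripts. A culture array detected 45.2% to 46.9% of its probes, against 60.2% to 62.6% for a lung array. The dimmest detected probe therefore lay at percentile 53.1 to 54.8 in cultures and 37.5 to 39.8 in lung. A transcript just above background thus ranks higher in cultures than in lung, which limits the reading of small upward differences of dim transcripts. A transcript below the detection position has no order. Where no array of 1 group detected a transcript, the difference is given as a bound ("at least") set by that position, and where only some lung arrays did, their number is given and the bound sets the others to that position. Rank correlations (Spearman, over probes) were 0.954 to 0.955 within cultures, 0.978 to 0.982 within lung and 0.774 to 0.786 between cultures and lung. Of 18312 genes, 8363 (45.7%) were detected on all 3 culture arrays and 11017 (60.2%) on all 3 lung arrays. Both groups detected 7924 genes, the cultures alone 212 (1.16% of all genes) and lung alone 2276 (12.4%). Of the 2276, 1322 lay above the position at which cultures could detect them. Among 11456 tested genes, 4847 (42.3%) ranked higher in cultures and 4306 (37.6%) ranked lower by limma at an adjusted p under 0.05. The values of the 2 groups did not overlap for 82.9% of tested genes. Of the genes called lower, 467 were undetected in cultures and ranked in lung no higher than the cultures' detection position, so no order can be given to them. Members of the lists below make up 11 of these, and the counts of members called lower include them. Most genes were called, and each list below is read against these shares.

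Most endothelial transcripts were not detected in the cultures. Of 33 measured pan-endothelial genes, 9 were detected on all 3 culture arrays, 21 on none and 3 on some, whereas 32 were detected on all 3 lung arrays. Their median percentile was 35.4 in cultures and 93.8 in lung, beside 51.9 and 53.3 for all genes. By limma 31 of 32 tested members ranked lower in cultures and 1 ranked higher, beside 37.6% and 42.3% of all genes. Lung alone detected 20 of the 32 genes found in lung, beside 20.7% of all genes found in lung. In bulk lung RNA, fewer cells of a type and less RNA per cell cannot be told apart.

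Of the 9 measured genes taken as defining for endothelium, 7 were detected on none of the culture arrays. Pecam1, a junction and signalling receptor, stood at 31.02, 36.05 and 39.1 in cultures, against 96.5, 96.8 and 95.8 in lung. Cdh5, the VE-cadherin of endothelial junctions, stood at 34.9, 8.81 and 21.7 in cultures, against 87.8, 88.6 and 86.4 in lung. Every lung array lay far above every culture array for both genes, and the bounds were at least 42.4 points for Pecam1 (adjusted p = 1.9e-07, limma) and at least 33.6 points for Cdh5 (adjusted p = 1.7e-05).

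The angiopoietin receptor Tek was at 42.3, 44.4 and 48.4 in cultures, against 97.8, 98.2 and 98.6 in lung. Vwf, the von Willebrand factor that endothelial cells store for clotting, was at 5.96, 23.9 and 29.04 in cultures, against 95.1, 94.8 and 96.2 in lung. Emcn, the surface sialomucin endomucin, was at 9.04, 15.8 and 17.9 in cultures, against 94.03, 92.98 and 94.4 in lung. None of the 3 was detected on a culture array, the groups did not overlap, and the bounds were at least 44.2, 41.4 and 39.8 points. Tie1, a receptor related to Tek, and Erg, an ETS factor, were likewise found on none of the culture arrays, with bounds of at least 22.3 and 2.91 points. The bound for Erg is small because its lung signal was itself modest, at 57.7, 59.6 and 53.4. The SOXF factor Sox18 and the adhesion molecule Icam2 were undetected in cultures, at least 40.1 and 42.6 points below lung.

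The receptors Flt1 and Kdr were the 2 defining genes detected on every culture array. Flt1, a VEGF receptor, stood at 72.5, 72.6 and 71.7 in cultures, against 99.2, 99.3 and 99.1 in lung, a difference of -26.98 points (SE 0.47, adjusted p = 6.2e-08). Kdr, the main signalling receptor for VEGF, stood at 58.6, 54.5 and 58.3 in cultures, against 50.9, 49.5 and 51.9 in lung, and was the only member of the list called higher (6.35 points, SE 2.02, adjusted p = 0.02). The Kdr probe was dim in both sources. It lay close to the detection position in cultures (53.1 to 54.8) and further above that position in lung (37.5 to 39.8). A higher rank of Kdr therefore need not mean a stronger signal. Its call was lost, at an adjusted p of 0.057, when culture replicate 1, culture replicate 3 or lung replicate 2 was left out, and on log2 signals (adjusted p = 0.16).

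The 7 other members found on all 3 culture arrays all ranked lower than in lung. Eng, a TGF-beta co-receptor also made by mesenchymal cells, stood at 87.7, 87.2 and 87.8 in cultures, against 96.1, 97.3 and 95.4 in lung. Gata2, a transcription factor of blood and vessel cells, stood at 92.00, 91.2 and 90.8 in cultures, against 98.9, 98.5 and 98.4 in lung. Egfl7, a secreted factor of the vessel wall, stood at 78.8, 78.98 and 78.9 in cultures, against 99.2, 99.3 and 99.4 in lung. Each group was tight, the groups did not overlap, and all 3 ranked lower in cultures by 8.71, 7.28 and 20.4 points. Mcam, Nos3, Acvrl1 and Ramp2 also ranked lower, with culture means of 76.1, 58.98, 59.1 and 61.8, against lung means of 86.8, 65.99, 84.5 and 99.8.

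**Figure D1:**
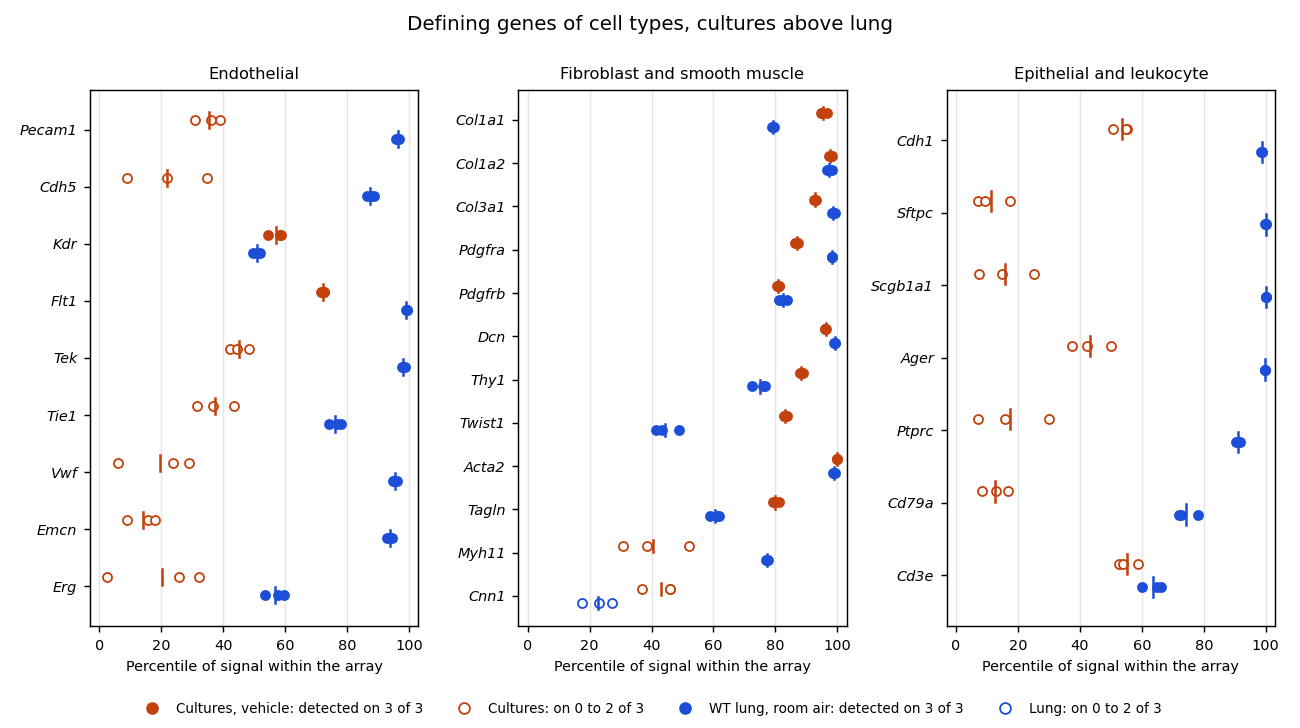
Percentile of the signal within each array (x axis, 0 to 100) for the measured defining genes of 5 kinds of cell, with the 3 cultures (orange) drawn above the 3 wild-type lungs in room air (blue). Filled circles mark transcripts detected on 3 of 3 arrays and open circles those detected on fewer, and a vertical line marks each mean; 7 of 9 endothelial genes are open in cultures and filled in lung, whereas collagen, PDGF receptor and Acta2 transcripts are filled in both.

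Genes of lung capillaries and veins followed the same pattern. Of 16 measured, 4 were detected on all 3 culture arrays, against 15 on all 3 lung arrays, and the median percentile was 29.4 in cultures and 87.3 in lung. Car4 (carbonic anhydrase of the capillary surface), Tmem100 (a BMP-responsive membrane protein), Lyve1 (a hyaluronan receptor) and Hpgd (a prostaglandin-degrading enzyme) were on none of the culture arrays. They lay at least 42.8, 45.7, 45.7 and 45.6 points below lung. Foxf1 and Slco2a1 were detected in cultures and ranked lower, with culture means of 74.3 and 73.4, against lung means of 84.6 and 96.2. Selp (P-selectin) and Nr2f2 (a venous transcription factor that mesenchymal cells also express) ranked higher, by 11.4 and 5.41 points. On log2 signals less the array median the list had 1 member called higher, against 2 by percentile. Of 5 lymphatic genes, 1 was detected in cultures. That was Pdpn (podoplanin), made by lymphatic, alveolar type 1 and many mesenchymal cells, which stood at 99.5, 99.6 and 99.5 in cultures, against 98.7 to 99.1 in lung. Both sources ranked it among their brightest transcripts, and the difference of 0.57 points lost its call without the intensity trend (adjusted p = 0.24). The lymphatic genes Ccl21a and Reln were undetected in cultures, at least 38.9 and 18.98 points below lung.

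Fibroblast and mesenchymal genes were mostly present in the cultures. Of 26 measured, 19 were detected on all 3 culture arrays, 1 on some and 6 on none, against 22 on all 3 lung arrays. The median percentile was 86.2 in cultures and 79.7 in lung. Of 23 tested, 11 ranked higher, 9 ranked lower and 3 were not called, beside 42.3% and 37.6% of all genes. Detection in cultures, 19 of 26 members, stood beside 45.7% of all genes.

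Col1a1, the alpha-1 chain of the main fibrillar collagen, stood at 94.8, 94.99 and 96.6 in cultures, against 79.1, 78.9 and 79.6 in lung, a difference of 16.3 points (SE 0.57, adjusted p = 2.1e-07). Its partner Col1a2 stood at 98.2, 97.9 and 97.3 in cultures, against 97.3, 96.8 and 98.3 in lung, and was not called (adjusted p = 0.43; 0.044 without lung replicate 3). Col3a1, the collagen of pliable tissue, stood at 92.7, 93.3 and 92.4 in cultures, against 98.4, 98.5 and 99.3 in lung. The groups overlapped for Col1a2, whereas for Col1a1 every culture lay above every lung and for Col3a1 below. The 2 detected probes of Col3a1 moved in opposite directions, so its direction is uncertain. Col5a1, which nucleates collagen fibrils, had means of 99.2 in cultures and 79.5 in lung, and Fbln2, an elastic matrix protein, had means of 99.2 in cultures and 64.9 in lung, with all 3 of its probes higher in cultures.

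The PDGF receptors that mark lung mesenchyme were detected in both sources. Pdgfra stood at 87.2, 86.9 and 86.4 in cultures, against 98.4, 98.4 and 98.3 in lung, and ranked lower by 11.5 points (adjusted p = 6.2e-08). Pdgfrb stood at 81.01, 81.01 and 80.5 in cultures, against 82.2, 81.1 and 83.8 in lung, and was not called (adjusted p = 0.12). It was called lower on log2 signals (adjusted p = 0.00016) and without lung replicate 2 (0.04). Dcn, the small proteoglycan decorin, stood at 96.3, 96.1 and 96.1 in cultures, against 98.9, 99.2 and 99.2 in lung, and Thy1, a surface glycoprotein of fibroblasts and lymphocytes, at 87.8, 88.2 and 88.8 in cultures, against 76.8, 72.5 and 76.1 in lung. Decorin was bright in both and ranked lower in cultures, and Thy1 ranked higher (13.2 points, adjusted p = 1.6e-05).

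Transcription factors of mesenchyme held the largest upward differences of the list. Prrx1, a homeobox factor of mesenchyme, stood at 90.2, 90.4 and 89.5 in cultures, against 38.00, 42.2 and 44.7 in lung, at least 47.8 points higher (adjusted p = 2.9e-07). Twist1, a helix-loop-helix factor of mesenchyme, stood at 82.8, 83.7 and 83.2 in cultures, against 43.3, 41.4 and 48.8 in lung (38.7 points, SE 2.04, adjusted p = 1.1e-06). Its relative Twist2 stood at 83.3, 83.2 and 83.6 in cultures, against 42.8, 43.4 and 50.01 in lung (37.96 points). For all 3 the cultures were far above lung, where the signal lay near the detection position and Prrx1 was detected on 2 of 3 arrays. Other genes of lung fibroblasts went the other way. Tcf21, a transcription factor of lung lipofibroblasts, stood at 28.8, 21.8 and 30.7 in cultures, against 89.8, 90.9 and 89.4 in lung, and Mfap4, a microfibril protein, at 47.1, 27.8 and 34.03 in cultures, against 98.02, 97.6 and 96.7 in lung. Neither was detected on a culture array, with bounds of at least 36.1 and 43.5 points. Lum, Fap, Postn and Gli1 were also on none of the culture arrays, but not all of them were found on all 3 lung arrays. Of the list, 4 genes were found in lung alone, Tcf21 and Mfap4 among them. Tcf21 and Mfap4 were the 2 members called lower by 20 points or more.

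Among smooth muscle genes, Acta2 (smooth muscle actin) stood at 99.99 or above on each culture array, against 98.7, 98.9 and 99.1 in lung, and all 4 of its probes ranked higher in cultures. The difference of 1.08 points (adjusted p = 0.00014) was at the top of the scale and missed the threshold without the intensity trend (adjusted p = 0.052). Tagln (transgelin), an actin-binding protein, stood at 79.8, 79.1 and 81.2 in cultures, against 61.2, 61.8 and 58.7 in lung (19.5 points, adjusted p = 4.1e-06). Actg2, enteric smooth muscle actin, and Lmod1, which nucleates actin filaments in smooth muscle, ranked higher by 10.3 and 24.6 points. Myh11, smooth muscle myosin heavy chain, stood at 38.7, 30.8 and 52.01 in cultures, against 77.4, 77.6 and 77.1 in lung, at least 23.4 points lower. It was detected on no culture array and on every lung array. Cnn1 (calponin) was not detected in either source. The pericyte genes Higd1b and Kcnj8 were undetected in cultures, and Des (desmin) ranked lower by 21.97 points. Of 15 measured genes, 8 were detected in cultures and 13 in lung, and 6 of 13 tested ranked higher and 6 ranked lower, shares near the 42.3% and 37.6% of all genes.

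Among factors and proteins linked to mesenchymal character, 10 of 11 were detected on all 3 culture arrays and 10 on all 3 lung arrays. Cdh2, the N-cadherin of mesenchymal and neural junctions, stood at 75.96, 72.8 and 73.5 in cultures, against 29.5, 31.6 and 26.9 in lung. It was detected only in cultures, by all 4 of its probes, at least 35.6 points above lung. Vim, the intermediate filament protein vimentin, stood at 98.99, 99.1 and 99.2 in cultures, against 94.8, 94.3 and 92.9 in lung. S100a4, a calcium-binding protein of motile cells, stood at 96.5, 95.96 and 95.7 in cultures, against 88.2, 82.4 and 79.5 in lung. Both were bright in each source and ranked higher in cultures, by 5.09 and 12.7 points. Zeb2 and the TGF-beta receptor Tgfbr1 ranked lower, by 10.5 and 15.4 points, and Snai1 was not called (adjusted p = 0.15).

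Transcripts of the matrix that underlies vessels were detected in both sources. Of 10 measured basement membrane genes, 9 were detected on all 3 arrays of each source. Of 9 tested, 6 ranked higher and 3 ranked lower, beside 42.3% and 37.6% of all genes. The counts were 4 and 3 on log2 signals less the array median and 4 and 2 with the replicate block. With the deposited log2 values they stayed at 6 and 3. Nid2 (nidogen-2) stood at 90.7, 90.7 and 90.4 in cultures, against 61.99, 60.1 and 59.5 in lung, a difference of 30.1 points (SE 1.00, adjusted p = 1.6e-07). Col4a1, a collagen IV chain, stood at 92.5, 92.3 and 93.1 in cultures, against 98.6, 98.7 and 98.4 in lung, and ranked lower by 5.90 points. Among genes of the cytoskeleton and matrix that respond to YAP and SRF, 13 of 13 were detected in both sources. Of these, 6 ranked higher and 4 ranked lower, near the shares of 42.3% and 37.6% of all genes. With the deposited log2 values 5 ranked higher and 6 ranked lower. Thbs1 (thrombospondin-1) ranked higher by 31.5 points and Ankrd1 by 11.7, whereas Tgfb2, a TGF-beta ligand, ranked lower by 4.83 points (adjusted p = 0.0043). Tpm2, a tropomyosin, ranked higher by 11.5 points but differed by -16.52 points with the deposited log2 values. Vcl, Cald1 and Tgm2 ranked lower by under 3 points, and Ccn1, Ccn2 and Actn1 were not called. Of 11 integrin and hyaluronan receptor genes, 7 were detected in cultures and 10 in lung. Itga6, the laminin receptor chain, was undetected in cultures (at least 37.6 points below lung), Itga3 ranked lower by 30.7 points, and Itga5 and Itgav ranked higher by 9.19 and 9.52 points.

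**Figure D2:**
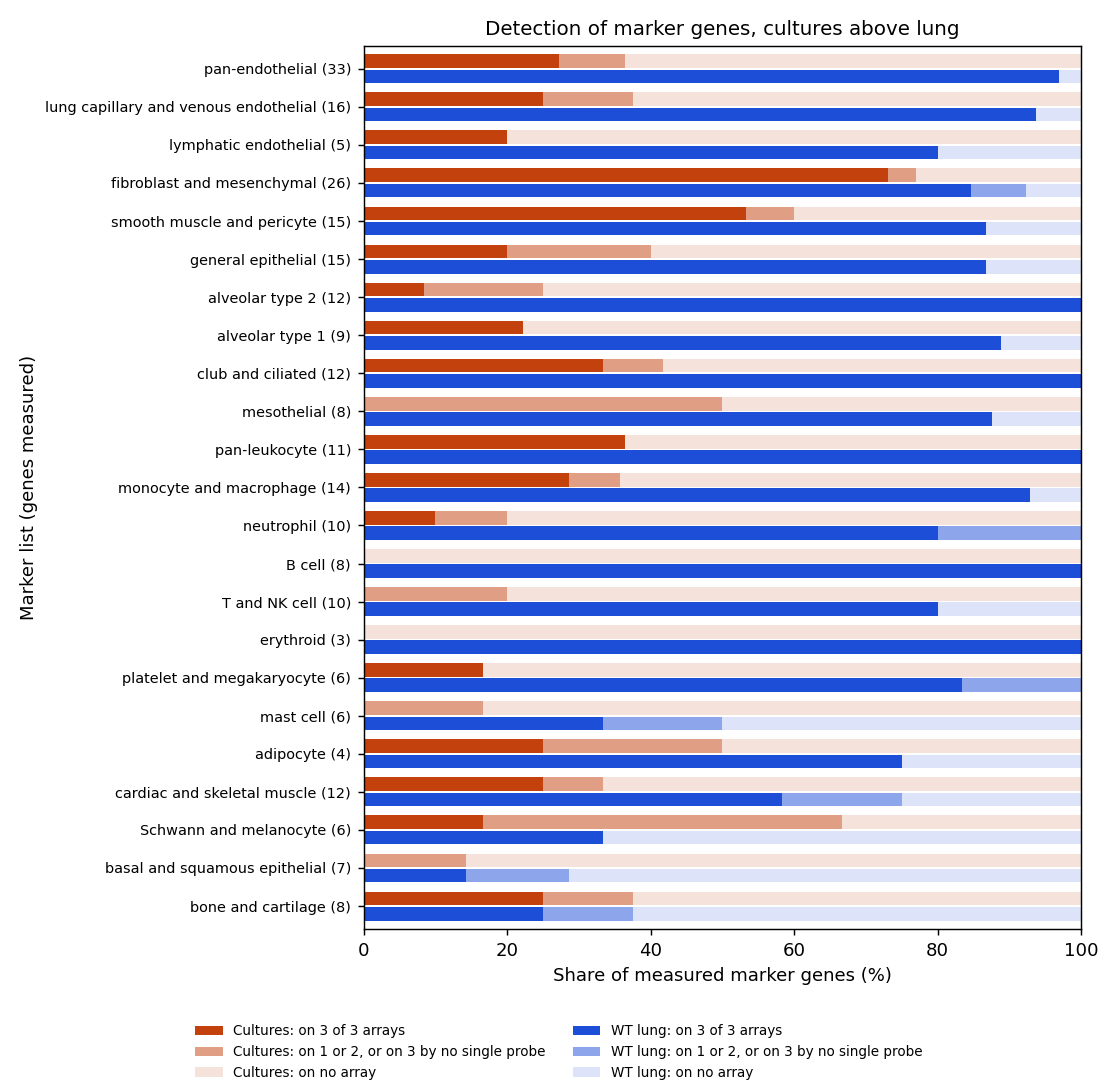
Share of the measured genes of each marker list (x axis, percent) that were detected on 3 of 3 arrays (dark), on some (middle shade) or on none (light), with cultures (orange) above wild-type lung in room air (blue) and the number of measured genes in brackets. In cultures the dark bar reaches 19 of 26 genes for the fibroblast and mesenchymal list and 9 of 33 for the pan-endothelial list, against 22 and 32 in lung.

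Epithelial transcripts were mostly absent from the cultures. Of 15 general epithelial genes, 3 were detected on all 3 culture arrays, against 13 in lung. Of 13 tested, 13 ranked lower, beside 37.6% of all genes. Cdh1, the E-cadherin of epithelial junctions, stood at 55.2, 50.8 and 54.9 in cultures, against 98.7, 98.6 and 98.9 in lung, and was detected on 2 culture arrays at the edge of background. Cldn3, a tight junction protein, and the factors Grhl2 and Esrp1 were undetected in cultures, at least 36.3, 22.7 and 30.8 points below lung. Of 12 alveolar type 2 genes, 12 were detected in lung and 1 in cultures. Sftpc, the surfactant protein made by type 2 cells, stood at 17.4, 6.99 and 9.33 in cultures, against 99.9, 99.98 and 99.97 in lung, at least 45.99 points lower. Abca3, a lipid transporter, was the exception, with means of 84.9 in cultures and 96.6 in lung.

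Of 9 alveolar type 1 genes, 2 were detected in cultures (Aqp5 and Emp2) and 8 in lung. Ager, the receptor abundant on type 1 cells, stood at 50.03, 37.4 and 42.2 in cultures, against 99.8, 99.8 and 99.8 in lung. Of 12 club and ciliated cell genes, 4 were detected in cultures and 12 in lung. Scgb1a1, the secretoglobin of club cells, stood at 25.2, 14.7 and 7.55 in cultures, against 99.97, 99.9 and 99.97 in lung. Neither gene was detected on a culture array, and both were at the top of every lung array. The enzymes Cbr2 and Aldh1a1, listed with club cells but made elsewhere too, were bright in cultures, with means of 85.1 and 94.6, against 99.9 and 99.8 in lung. Of 8 mesothelial genes none was on all 3 culture arrays, 4 were on some and 4 on none, against 7 on all 3 lung arrays. Wt1 and Lrrn4 were undetected, and Msln was detected on 1 culture array.

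Blood cell transcripts were also rare. Of 11 pan-leukocyte genes, 4 were detected in cultures and 11 in lung, and 10 of 11 tested ranked lower, beside 37.6% of all genes. Ptprc, the CD45 phosphatase of leukocytes, stood at 15.7, 6.99 and 29.96 in cultures, against 91.7, 90.4 and 90.95 in lung, at least 37.1 points lower. The 4 detected were Coro1a, Cd53, Itgb2 and Arhgdib, with culture means of 75.8, 70.5, 56.8 and 93.7, against lung means of 96.8, 96.7, 68.8 and 92.1. Arhgdib was not called (adjusted p = 0.082). Of 14 monocyte and macrophage genes, 4 were detected in cultures and 13 in lung. Chil3, Mrc1, C1qb and Adgre1 were on none of the culture arrays, whereas Lyz2 and Cd14 were detected at means of 70.5 and 76.9, against 99.9 and 82.2 in lung. Of 8 B cell genes none was detected in cultures and 8 were in lung, with Cd79a at 16.7, 12.97 and 8.45 in cultures, against 72.1, 72.8 and 78.1 in lung. Of 10 T and NK cell genes, none was on all 3 culture arrays and 8 were in lung, and Cd3e was on 1 culture array. The lung median of this list was 54.5, close to the position at which cultures detect a transcript. For its dimmer members, non-detection in cultures therefore cannot show that they were rarer than in lung. Cd3d, Cd2 and Cd3g were undetected in cultures, at least 11.1, 17.3 and 14.3 points below lung, whereas Ncr1 had no bound.

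Neutrophil genes (1 of 10 in cultures, 8 in lung), erythroid genes (0 of 3, against 3) and platelet genes (1 of 6, against 5) were low as well. S100a9 and Retnlg of neutrophils, and the haemoglobin chain Hba-a1 and haem enzyme Alas2 of red cells, were undetected in cultures, at least 43.2, 32.2, 45.98 and 36.8 points below lung. Lung S100a9 stood at 99.7, 98.9 and 92.9, Retnlg at 97.02, 88.98 and 72.5 and Alas2 at 96.8, 89.2 and 86.3, so replicate 1 was highest for all 3 of these blood cell genes. Genes of MHC class II presentation followed the leukocytes. Cd74, H2-Eb1, H2-Ab1 and the regulator Ciita were detected only in lung, with bounds of at least 45.5, 43.4, 42.2 and 15.6 points. Of class I, the heavy chain H2-K1 stood at 26.9, 34.4 and 32.5 in cultures, against 93.7, 91.6 and 95.3 in lung, undetected in cultures and at least 39.6 points lower (adjusted p = 2.1e-07). The heavy chain H2-D1 was detected in both and ranked lower by 25.4 points. B2m, the light chain of class I, stood at 99.7, 99.7 and 99.7 in cultures, against 99.8, 99.9 and 99.8 in lung, and was not called (adjusted p = 0.32).

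Lists for other tissues added few transcripts. Of 12 cardiac and skeletal muscle genes, 3 were detected in cultures and 7 in lung. Acta1, skeletal muscle actin, stood at 78.2, 76.8 and 77.3 in cultures, against 8.53, 6.35 and 13.7 in lung, and was detected only in cultures, at least 38.9 points higher. The cardiac genes Actc1 and Myl7 were detected only in lung. Of 8 bone and cartilage genes, 2 were detected in each source. Sox9, a chondrocyte and progenitor factor, stood at 64.7, 69.6 and 67.8 in cultures, against 17.9, 10.7 and 14.4 in lung, and was detected only in cultures (at least 28.9 points), whereas Sp7, Acan and Bglap were undetected in both. Adipocyte genes numbered 1 of 4 in cultures and 3 in lung, mast cell genes 0 of 6 and 2, Schwann and melanocyte genes 1 of 6 and 2, and basal and squamous epithelial genes 0 of 7 and 1. Of 4 sex-linked transcripts, 3 followed the labelled sex. Xist, which silences an X chromosome in females, stood at 74.3, 72.2 and 73.6 in cultures, against 26.98, 18.9 and 32.8 in lung, and the Y-linked Eif2s3y and Kdm5d were detected only in lung. The Y-linked Uty stood at 52.8, 56.7 and 52.3 in cultures, against 63.98, 63.8 and 65.8 in lung, and was detected on culture replicate 2.

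The pattern was shared by the other arrays of each source. Over 6 culture arrays, rIL-4 and vehicle, the pan-endothelial median lay between 29.1 and 43.2, against 90.6 to 94.4 over 12 lung arrays. The fibroblast and mesenchymal median lay between 84.8 and 86.4 on the 6 culture arrays, against 79.2 to 88.7 on the 12 lung arrays. The endothelial ranges were far apart and the mesenchymal ranges overlapped. Of the 33 pan-endothelial genes, 20 were detected on none of the 6 culture arrays, and 32 were detected on all 12 lung arrays. Pecam1 was detected on 1 of the 3 rIL-4 arrays, and Cdh5, Tek, Tie1, Vwf, Emcn and Erg were detected on none of them.

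**Figure D3:**
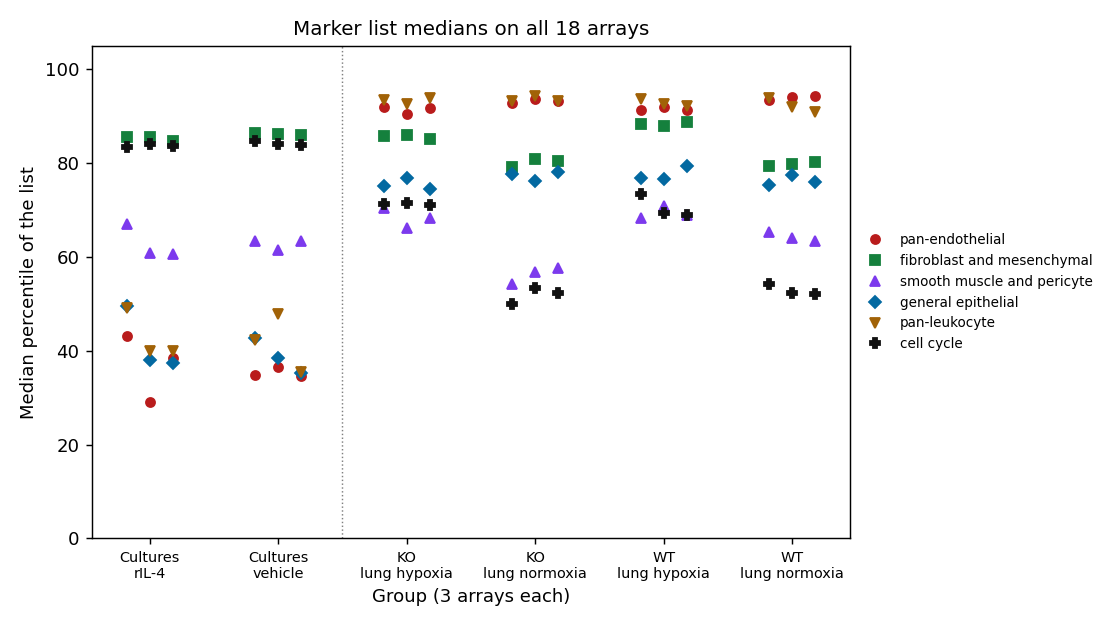
Median percentile (y axis) of 6 gene lists on each of the 18 arrays, by group along the x axis, with cultures left of the dotted line and lung right of it. The pan-endothelial medians (red circles) lie at 29.1 to 43.2 in cultures and 90.6 to 94.4 in lung; the fibroblast and mesenchymal medians (green squares) lie at 84.8 to 86.4 and 79.2 to 88.7.

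Genes of DNA replication and mitosis ranked higher in the cultures. Of 26 measured, 23 were detected on all 3 culture arrays and 20 on all 3 lung arrays, and the median percentile was 84.3 in cultures and 52.2 in lung. Of 24 tested, 22 ranked higher in cultures and 2 ranked lower, beside 42.3% and 37.6% of all genes. By 20 points or more, a size chosen after the values were seen, 16 ranked higher, beside 6.99% of all genes. With the deposited log2 values the list had 17 higher and 6 lower. On the 6 lung arrays at 10% oxygen the list median lay between 69.0 and 73.4, above room air and below the cultures.

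Top2a, the topoisomerase that untangles chromosomes at mitosis, stood at 80.7, 82.5 and 83.4 in cultures, against 42.5, 45.9 and 33.9 in lung, at least 39.98 points higher with 2 of 3 lung arrays detected (adjusted p = 5.8e-06). Aurka, the kinase of spindle poles, stood at 84.4, 84.7 and 84.6 in cultures, against 41.2, 45.3 and 40.9 in lung (42.1 points, SE 1.63, adjusted p = 3e-07). The cultures were uniformly high and lung lay near the detection position. Cdc20, an activator of the anaphase-promoting complex, stood at 93.2, 92.6 and 92.7 in cultures, against 61.02, 62.3 and 61.8 in lung (31.1 points), with all 4 of its probes higher. The replication helicase subunits Mcm2 to Mcm7 all ranked higher, by 4.24 points for Mcm4 to at least 27.4 for Mcm3, which 2 of 3 lung arrays detected. Cdk1, the mitotic kinase, and Tk1, a thymidine kinase, ranked higher by at least 47.9 points (2 of 3 lung arrays detected) and by 44.7 points but differed by -14.11 and -10.25 points with the deposited log2 values, and only 1 of 2 detected Cdk1 probes was higher. Pcna, the sliding clamp of DNA polymerase, stood at 76.9, 77.3 and 74.7 in cultures, against 95.7, 95.9 and 95.3 in lung, and Ccna2 (cyclin A2) was undetected in cultures at 42.7, 45.1 and 38.3, against 51.4, 48.2 and 52.1 in lung. These 2 were the members called lower, but all 3 lung values of Ccna2 lie below the position at which cultures detect a transcript, so its direction cannot be given.

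As background to this list, the promoters of Top2a and Aurka are shown, each 250 bases before to 50 bases after the RefSeq start on the gene's strand, 5′ to 3′ (RefSeq, GRCm38.p6, chr11:99024140-99024439 and chr2:172370521-172370820, both on the minus strand). Capitals mark CCAAT, the box bound by NF-Y, and TTTGAA, the core of the cell cycle genes homology region, on either strand.
Top2a: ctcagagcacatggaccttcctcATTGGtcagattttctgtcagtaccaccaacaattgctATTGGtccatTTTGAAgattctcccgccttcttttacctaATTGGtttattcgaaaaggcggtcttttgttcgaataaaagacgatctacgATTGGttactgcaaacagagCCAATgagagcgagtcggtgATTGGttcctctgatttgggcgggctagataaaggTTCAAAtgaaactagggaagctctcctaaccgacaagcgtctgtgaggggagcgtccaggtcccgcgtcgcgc
Aurka: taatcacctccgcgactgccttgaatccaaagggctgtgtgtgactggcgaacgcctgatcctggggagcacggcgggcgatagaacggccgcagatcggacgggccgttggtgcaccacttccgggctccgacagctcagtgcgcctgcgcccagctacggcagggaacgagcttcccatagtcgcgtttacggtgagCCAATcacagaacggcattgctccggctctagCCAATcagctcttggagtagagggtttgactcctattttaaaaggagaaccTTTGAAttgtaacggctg
The Top2a promoter held 6 CCAAT matches and 2 TTTGAA matches, and the Aurka promoter held 2 and 1. Of the 26 measured cell cycle genes, 23 had an entry, with 26 promoters in all. CCAAT was found in 80.8% of these promoters and in 37.4% of the 32851 promoters of the table, and TTTGAA in 38.5% and 17.9%. A match describes the letters of the window and is not a test of binding, and overlapping matches were each counted. The shares belong to the listed genes, whatever their call, and do not depend on the array values.

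The inhibitors that halt the cell cycle were detected as well. Of 7 measured, 7 were detected in cultures and 6 in lung, and 4 ranked higher and none lower, beside 42.3% and 37.6% of all genes. Cdkn2a, which encodes p16INK4a and p19ARF, stood at 85.96, 86.00 and 84.7 in cultures, against 35.8, 36.8 and 42.5 in lung (at least 45.6 points, adjusted p = 4.8e-07), with both probes higher. Its neighbour Cdkn2b stood at 97.9, 97.96 and 97.9 in cultures, against 91.6, 92.7 and 93.5 in lung. Cdkn2a was detected on 1 of 3 lung arrays, replicate 3, whereas Cdkn2b was bright on every lung array. Cdkn1a (p21) was called higher by 4.47 points, a call lost without culture replicate 1, 2 or 3 (adjusted p = 0.057 to 0.064) and reversed in sign with the deposited log2 values (-2.40 points).

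Glycolytic genes ranked higher as a group, with 12 of 12 tested higher in cultures, beside 42.3% of all genes. Their medians were 94.0 in cultures and 83.4 in lung. With the deposited log2 values 10 were higher and 1 lower. The glucose transporter Slc2a1 stood at 93.9, 94.5 and 93.5 in cultures, against 80.2, 78.9 and 78.4 in lung (14.8 points, adjusted p = 3.7e-07), and Pgam1 (phosphoglycerate mutase) ranked higher by 14.9 points. Gapdh was near the top of both sources, at means of 99.8 in cultures and 98.5 in lung. The groups did not overlap for any of these 3.

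Cytokines and adhesion molecules of activated endothelium, which fibroblasts also make, were prominent in cultures. Of 14 measured, 10 were detected in cultures and 8 in lung. Of 11 tested, 8 ranked higher and 3 ranked lower, beside 42.3% and 37.6% of all genes. Ccl2, a monocyte chemokine, stood at 91.2, 91.7 and 90.8 in cultures, against 34.5, 41.2 and 21.1 in lung (at least 51.5 points with 1 of 3 lung arrays detected, adjusted p = 7.9e-06). Ccl7, its neighbour with overlapping receptors, stood at 99.05, 99.2 and 99.05 in cultures, against 51.1, 62.1 and 50.1 in lung. Cxcl1, a neutrophil chemokine, stood at 93.8, 93.2 and 93.5 in cultures, against 52.04, 57.2 and 55.6 in lung. All cultures lay above all lungs for the 3 chemokines, whose lung signals were dim. Il6 was detected only in cultures (at least 24.2 points), and Csf1, the macrophage growth factor, ranked higher by 27.8 points. Csf2, a cytokine, was the 1 member of the list found in lung alone and was undetected in cultures. It was called lower, with a difference of -37.17 points (adjusted p = 1.3e-05, limma). That value is the plain difference in percentile and not a bound. No bound is given for Csf2, so no direction is read from it. Vcam1 stood at 97.2, 97.4 and 97.3 in cultures, against 92.5, 93.1 and 92.7 in lung, and Icam1 at 79.03, 78.3 and 78.5 in cultures, against 98.2, 98.4 and 98.7 in lung. The 2 leukocyte ligands thus differed in opposite directions, and Sele (E-selectin), the adhesion molecule most restricted to endothelium, was detected in neither source. Of 12 genes of the IL-4 response pathway, 8 were detected in cultures and 11 in lung. Of 11 tested, 1 ranked higher and 7 ranked lower, beside the same shares of all genes. Ptpn6, a phosphatase that dampens cytokine signals, and the kinase Jak3 were undetected in cultures, at least 29.04 and 6.23 points below lung. The kinase Jak1 ranked lower by 20.3 points and Cish, a feedback inhibitor, by 19.3, whereas the docking protein Irs1 ranked higher by 14.6. Stat6, the transcription factor of that pathway, had means of 67.2 in cultures and 79.1 in lung, and Il13ra1 was not called (adjusted p = 0.095).

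**Figure D4:**
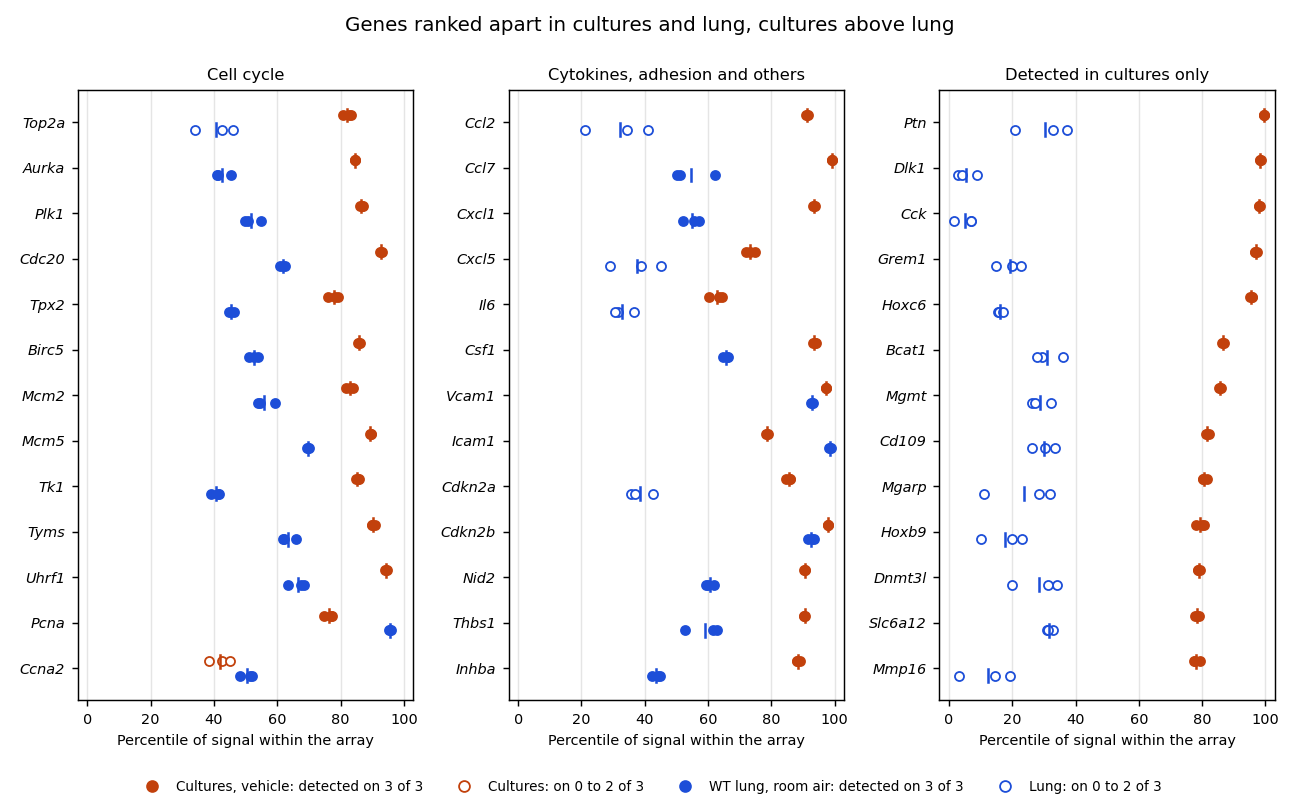
Percentile of the signal within each array (x axis, 0 to 100) for cell cycle genes, for cytokine, adhesion and other genes, and for genes detected in cultures only, with the 3 cultures (orange) above the 3 wild-type lungs in room air (blue); filled circles are detected on 3 of 3 arrays, open circles on fewer, and lines are means. Cultures lie right of lung for every gene drawn other than Pcna, Ccna2 and Icam1.

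Of the 212 genes found in cultures alone, 2.53% of those that cultures detected, the 4 brightest encode secreted and cell surface proteins. Ptn, the growth factor pleiotrophin, stood at 99.5, 99.4 and 99.4 in cultures, against 20.9, 37.2 and 32.8 in lung, at least 60.9 points higher. Dlk1, a membrane protein of preadipocytes and embryonic mesenchyme, stood at 98.2, 98.3 and 98.6 in cultures, against 8.95, 2.88 and 3.96 in lung, at least 59.9 points higher. Cck, the peptide hormone cholecystokinin, stood at 98.05, 98.02 and 98.1 in cultures, against 1.52, 7.02 and 7.09 in lung, at least 59.5 points higher. No lung array detected any of the 3, and the 3 cultures were close to each other. Grem1, a secreted BMP antagonist, had the next brightest signal, at 96.8, 97.2 and 96.8 in cultures, against 19.96, 14.9 and 22.7 in lung.

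Prl2c3 and Prl2c4, placental prolactin relatives called proliferins, were also found in cultures alone, at least 54.8 and 52.1 points above lung. They are near-identical copies whose probes may not tell them apart, so their separate levels are uncertain. The others among the 15 brightest were Bcat1, Mgmt, Cd109, Mgarp, Dnmt3l, Slc6a12, Mmp16, Hoxc6 and Hoxb9, with bounds from 39.7 to 56.96 points. With the deposited log2 values Cd109 was placed below lung (-25.14 points), and Mmp16 differed by 3.43 points and lost its call (adjusted p = 0.66).

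The 15 brightest genes found in lung alone included surfactant, club cell, haemoglobin and capillary genes described above. They were Sftpd, Scgb1a1, Sftpc, Hba-a1, Cyp2f2, Wfdc2, Slc34a2, Ager, Inmt, Ces1d, Hbb-bt, Tmem100, Chil1, Lyve1 and Acer2. Their lung means were 99.6 or more, and the bounds lay between 45.6 and 46.00 points. In lung these ranks are close to the top of the scale, which leaves no room for larger bounds. Of the genes found in lung, 20.7% were found in lung alone.

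Among genes detected in both sources, the largest differences upward in cultures were those of Cdk1, Nme4, Igf2bp3, Inhba, Tk1, Ccl7, Fst, Aurka, Pcdh7 and Car13. For Cdk1 the probe shown was detected on 2 of 3 lung arrays, and the other detected probe of the gene was not higher in cultures. Inhba, the activin beta-A subunit, stood at 88.1, 89.1 and 87.95 in cultures, against 44.2, 42.2 and 44.8 in lung (44.7 points, adjusted p = 1.2e-07). Fst, the follistatin that binds activin, stood at 93.2, 93.7 and 93.1 in cultures, against 54.7, 51.7 and 39.5 in lung (44.6 points, adjusted p = 9.4e-06). Igf2bp3, an RNA-binding protein abundant in embryos, stood at 91.1, 90.8 and 91.1 in cultures, against 51.4, 43.9 and 41.8 in lung (45.3 points). All 3 were high on each culture array and dim on each lung array.

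The largest differences downward were those of Cdhr3, Fmo1, Glul, Ctss, Clec1a, Klf2, Gucy1a1, Ramp2, Rgcc and Sash1. Klf2, a transcription factor that blood flow induces in endothelium, stood at 57.4, 62.9 and 57.7 in cultures, against 97.7, 97.3 and 97.6 in lung (-38.3 points, SE 1.48, adjusted p = 3e-07). Gucy1a1, a subunit of the nitric oxide receptor, stood at 62.8, 59.3 and 58.9 in cultures, against 98.4, 98.03 and 98.9 in lung, with all 3 probes lower. Ctss, a protease of antigen-presenting cells, stood at 60.5, 58.02 and 58.96 in cultures, against 98.7, 98.3 and 98.6 in lung. The cultures lay just above their detection position and lung near the top for all 3. For Cdhr3 and Clec1a the probe shown was undetected in cultures and another probe was detected, and the 2 detected probes of Cdhr3 disagreed in direction.

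The Hox genes, chosen after Hoxc6 and Hoxb9 were seen among the genes found in cultures alone, are given as a description without tests. Hox factors set position along the body axis in mesenchyme and other tissues and keep it in adult cells. Of 38 measured, 13 were detected on all 3 culture arrays and 13 on all 3 lung arrays, beside 45.7% and 60.2% of all genes. Of these, 10 were found in both, 3 in cultures alone and 3 in lung alone. The cultures alone held 1.16% of all genes and lung alone 12.4%. Hoxc6 and Hoxb9, which led to the choice, are among the 3 in cultures alone. Hoxa5, which patterns the lung, stood at 96.8, 96.9 and 96.99 in cultures, against 95.3, 95.9 and 94.04 in lung, and Hoxb5 at 90.4, 90.6 and 90.6 in cultures, against 90.2, 91.9 and 91.1 in lung. Both sources were bright for both genes, and the groups overlapped for Hoxb5 alone. Hoxc6 stood at 95.6, 95.6 and 95.2 in cultures, against 15.5, 15.9 and 16.98 in lung, Hoxb9 at 79.97, 80.5 and 77.9 in cultures, against 23.1, 10.3 and 19.9 in lung, and Hoxc9 at 60.1, 56.4 and 57.4 in cultures, against 6.03, 12.2 and 12.7 in lung. These 3 were undetected on every lung array. Hoxb6 and Hoxb7 were detected in both, with means of 78.2 and 84.8 in cultures, against 44.3 and 56.3 in lung. Hoxb3, Hoxc4 and Hoxc10 were found in lung alone. Every lung value of Hoxc4 and Hoxc10 (means of 45.72 and 51.08) lay below the position at which cultures detect a transcript. The direction of these genes therefore cannot be given, and the bound for Hoxb3 was only 0.84 points. No Hoxd gene was detected on all 3 arrays of either source.

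**Figure D5:**
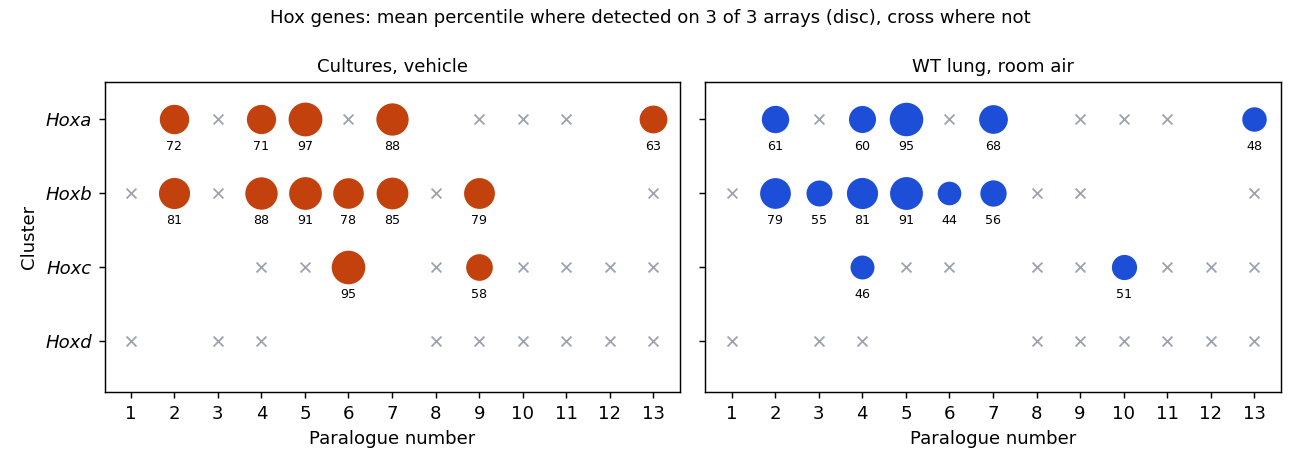
Measured Hox genes by cluster (y axis) and paralogue number (x axis), with the 3 cultures in the left panel and the 3 wild-type lungs in room air in the right. A disc, sized and labelled by the mean percentile, marks genes detected on 3 of 3 arrays and a cross marks the rest; discs at Hoxc6, Hoxc9 and Hoxb9 appear for cultures alone.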

How the data were processed

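Biotin-labelled RNA of each sample was read on its own Illumina mouse bead array. The non-normalized table that the authors deposited holds an intensity and a detection p-value for every probe on every array. The submitters' processing notes name BeadStudio. Its version and the genome build are "not given in the sources used here". A deposited table of log2 values served as an alternative: on the lung arrays it matched log2 of the intensities within 0.02 for all 25697 probes, but on the culture arrays 7580 probes did not match. Over those 7580 probes, log2 intensities of cultures correlated with those of lung at 0.795, and the deposited culture values at 0.365. Over the 18117 matching probes both correlated at 0.798. The cause of the mismatch was not tested.

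Intensities were turned into percentiles within each array. Of the probes, 23978 had 1 gene symbol and 1719 had none, and for each gene the probe with the highest mean percentile over the 6 arrays was used. Genes with a probe detected on all 3 arrays of either group were tested with limma 3.58.1 in R 4.3.3 (intensity trend, Benjamini-Hochberg adjustment, 4 residual degrees of freedom). An exact permutation test of 1 gene could not go below 0.10 with 3 arrays against 3. The p-values measure only the spread between these arrays, which may be technical for the cultures. In simulated data, both groups were drawn from the means and spread of the lung arrays, and only genes bright in lung were changed. There, 76% of 100 genes changed by 1 on the log2 scale and 92% of 100 changed by 2 were recovered. Of 11256 unchanged genes, 10 were called. In the real comparison most genes were called and the detection positions differed, so these rates do not carry over to it.

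Gene lists and members were chosen with earlier results of these data known. Named by rule were the defining genes, up to 4 members a list with the largest called difference and no overlap between groups, the 15 brightest genes found in 1 source alone, and the 10 largest differences each way among genes found in both. Other list members were named after their values were seen. Replicate numbers did not pair the arrays: deviations of cultures and lungs with the same number correlated at -0.042 to -0.025. Alternatives covered the scale, the filter, the trend, the probe choice, the detection threshold, the replicate block and each array left out.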

Additional observations from a re-analysis of the deposited data

How the results depend on the processing

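Leaving out each array in turn gave 4633 to 4855 genes higher and 4075 to 4198 lower in cultures, 227 to 270 found in cultures alone and 2373 to 2472 found in lung alone. The replicate block gave 4711 higher and 4191 lower, with 178 of 180 named genes keeping their direction and call. Normal scores, neqc values and percentiles among detected probes kept direction and call for 180 of 180, log2 signals for 174, no intensity trend for 174, no detection filter for 178 and single arrays left out for 174 to 177. Counting every probe by itself gave 327 found in cultures alone, against 212. A detection p-value under 0.01 gave 144 genes found in cultures alone and 2950 in lung alone, against 212 and 2276. With the deposited log2 values the culture median was 31.7 for the pan-endothelial list and 85.1 for the fibroblast and mesenchymal list, and 5 of 180 named genes changed sign: Cdk1 (-14.11 points), Tk1 (-10.25), Cdkn1a (-2.40), Tpm2 (-16.52) and Cd109 (-25.14). Mmp16 lost its call there. On log2 signals less the array median Cdkn2c was at -0.05. The cause was not tested. Detection limits the cultures: only 1322 of the 2276 genes found in lung alone ranked above the position at which cultures detect a transcript.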
